A study of Mus musculus with 8 samples.

Results

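The genes that make cholesterol and fatty acids were followed in mouse splenic follicular B cells, with the sterol arm kept apart from the fatty acid arm. A fixed list of 31 gene symbols defined the members, and all 31 were found by Ensembl identifier on build GRCm38 among the 43629 genes of the deposited count table. The sterol arm holds 18 enzymes of the path to cholesterol and 5 genes of sterol sensing, control or transport. The fatty acid arm holds 8 genes of fatty acid synthesis, elongation and desaturation. The list does not hold every enzyme or regulator of these pathways.

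RNA-seq counts came from 8 libraries of sorted cells labelled follicular B cells, a type that recirculates and fills the splenic follicle. GFP-ZFP36L1 libraries (n = 4) carried the allele Rosa26GFPZFP36L1 and a heterozygous CD23cre, and control libraries (n = 4) carried the Rosa26GFPZFP36L1 allele without Cre. ZFP36L1 attaches to AU-rich stretches in the 3' UTR of target mRNAs and recruits the machinery that degrades them. CD23, the low-affinity IgE receptor, is switched on as B cells mature, so the recombinase acts late in the lineage. Both groups carry the allele, and the presence of Cre and the expression of the protein cannot be told apart in this design. Replicate numbers used below follow the order of the sample titles within each group, and an equal number in both groups marks no labelled pair. The labels state no age, and nothing in them ties a library to its own animal. The p-values hence reflect spread among libraries, which may be technical. In the labels the sort took cells positive for CD21, CD23, B220 and CD93. CD93 is known as a marker of immature B cells, and whether the label is right on it was not tested.

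Cholesterol is built from acetyl-CoA through mevalonate, isoprenoid diphosphates, squalene and lanosterol. Most enzymes of that path are switched on together by the transcription factor SREBP2, which the escort protein SCAP carries from the endoplasmic reticulum to the Golgi when sterol is scarce, and which the INSIG proteins hold back when sterol is plentiful. Fatty acids are made from the same acetyl-CoA, then lengthened and desaturated for membrane lipids. Resting B cells run these paths at a low rate and raise them when they are activated to grow and divide.

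Library totals ran from 38947758 to 51024233 counts. The libraries labelled GFP-ZFP36L1 had less, not more, Zfp36l1 RNA, at 439 ± 28.6 CPM against 547 ± 35.1 CPM in the controls (CPM are counts scaled to library size, SD, n = 4 each), and less of the Rosa26 transcript Gt(ROSA)26Sor, at 3.90 ± 0.604 CPM against 16.9 ± 2.58 CPM. Directions below are therefore those of the labels. The 9 follicular B cell markers summed to between 14041 and 15981 CPM in GFP-ZFP36L1 libraries and between 16117 and 17286 CPM in controls, so the groups did not overlap, and Ighd and Pax5 were called lower. Markers of T cells (2.03 to 3.41 against 1.83 to 2.60 CPM), NK cells (2.40 to 4.24 against 2.45 to 3.16 CPM) and dendritic cells (3.94 to 4.70 against 3.54 to 5.11 CPM) were near 0. Ncr1 and Gzma of the NK cell list had 0 counts in every library. The 10 markers of monocytes, macrophages and neutrophils summed to between 2.85 and 3.68 CPM in GFP-ZFP36L1 libraries and between 4.13 and 5.33 CPM in controls, without overlap and with Ly6g at 0. Adgre1 set them apart, at 1.73 ± 0.650 against 3.21 ± 0.574 CPM (SD, n = 4 each), and without it the sums were 0.863 to 1.92 against 1.35 to 1.58 CPM. Erythroid and platelet markers summed to between 4.67 and 11.7 CPM against 4.51 to 16.2 CPM, and plasma cell markers to between 96.4 and 123 CPM against 100.04 to 125 CPM, with Tnfrsf17 at 0. Xbp1 made up most of the plasma cell sum, at 94.0 ± 10.3 against 95.9 ± 10.8 CPM. Prdm1 was higher without overlap, at 2.25 ± 0.461 against 1.49 ± 0.265 CPM. Jchain was lower, at 0.919 ± 0.174 against 1.60 ± 0.536 CPM (SD, n = 4 each), and neither was called. The 12 markers of cycling and activated B cells summed to between 369 and 409.46 CPM in GFP-ZFP36L1 libraries and between 409.42 and 420 CPM in controls, and 0 of the 12 were called. The part of these differences in the results below was not tested.

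No member of either arm was called. Of the 30 members that could be tested, 0 passed a Benjamini-Hochberg adjusted p of 0.05 in the quasi-likelihood test of edgeR. The adjustment ran over all 13035 tested genes, of which 3.12% were called (407 genes), 1.83% higher and 1.3% lower in GFP-ZFP36L1 libraries. DESeq2, run on the same counts, called 2 members, Pmvk and Scd1, and 6.89% of all genes it tested. With quality weights, limma voom called Scd1 alone and 8.08% of all genes, and both tools gave these members as lower in GFP-ZFP36L1 libraries. In bulk samples fewer cells expressing a gene and less of its RNA per cell cannot be told apart. At an unadjusted p under 0.05 there were 5 of 30 members, against 17.3% of all tested genes: Pmvk, Fdps and Scd1 lower, Elovl6 and Fads1 higher. The groups did not overlap for 3 of the 30, Pmvk, Scd1 and Fads1, where 11.2% of all tested genes did not overlap. Of these 3, Pmvk and Scd1 were lower and Fads1 higher, beside 4.98% and 6.24% of all tested genes. Both shares lay near those of the table as a whole. The authors' deposited table calls Pmvk, with a log2 fold change of -0.21 and an adjusted p of 0.0416, and Scd1, at -0.26 with an adjusted p of 0.0045, both lower, among 875 called genes of 13191 with an adjusted p.

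Direction differed little from an even split: 14 of the 30 tested members had positive and 16 negative log2 fold changes, and their median was -0.02, beside -0.01 over all tested genes. The 18 sterol enzymes had a median log2 fold change of -0.05, with 7 above 0 and 11 below, and ranged from -0.27 to 0.10. For the 5 sterol control genes the median was -0.09, with 2 above 0 and 3 below, and it was -0.04 without GFP-ZFP36L1 replicate 4. In the fatty acid arm the 7 tested members had a median of 0.08, with 5 above 0 and 2 below, and spanned a wider range, from -0.29 to 0.52. Among all tested genes 52.1% were below 0.

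**Figure D1:**
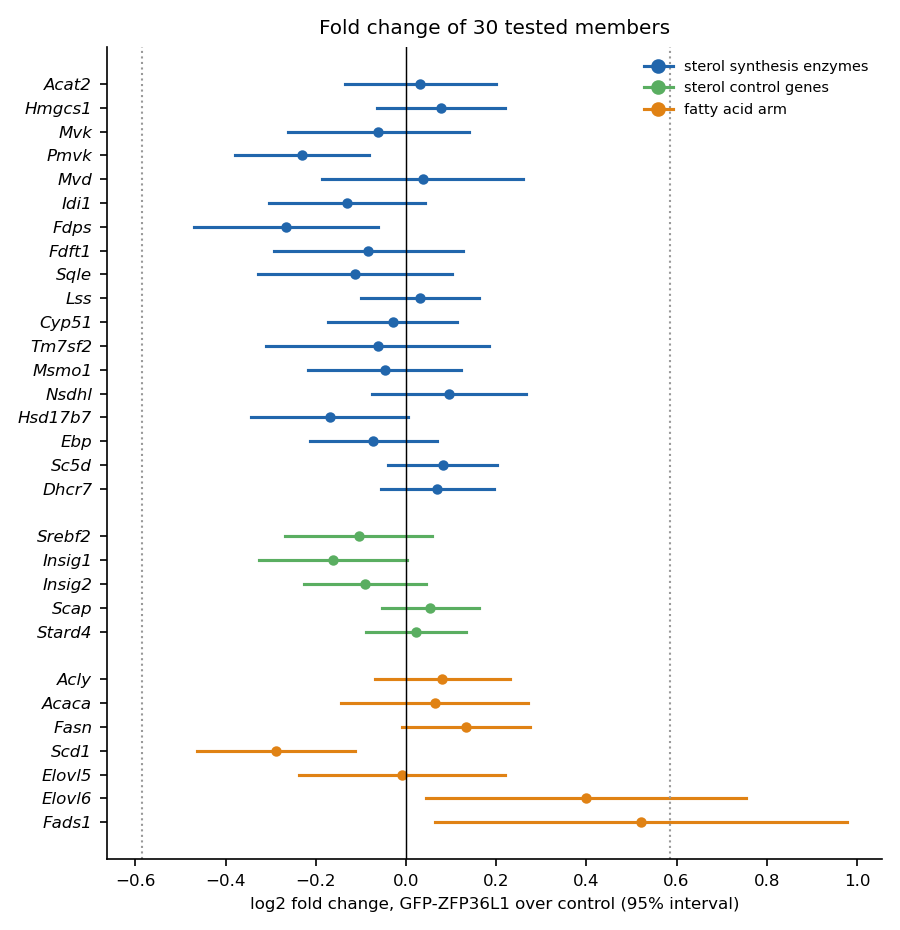
Log2 fold change of each tested member, GFP-ZFP36L1 over control, in pathway order from top to bottom; points are edgeR estimates, bars their 95% intervals, and dotted lines mark a fold of 1.5 either way. All 23 sterol members lie between the dotted lines with their whole interval, while the bars of Elovl6 and Fads1 extend past the upper line.

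For each sterol gene taken alone, the 95% interval limits the difference that could have gone unseen. The intervals were not widened for the number of genes. They rest on spread among libraries, which may be technical. The 95% interval of each of the 23 sterol members lay within a fold of 1.5 in either direction, and 22 of the 23 lay within 1.3. The exception was Fdps, which reached lowest, to a change of -27.8%, and Nsdhl reached highest, to 20.3%. In the fatty acid arm 5 of 7 lay within 1.5 and 4 within 1.3. The median standard error of the log2 fold change was 0.07 in the sterol arm and 0.09 in the fatty acid arm.

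Levels per length set the members apart far more than the groups did. On the scale of CPM per kb of exon, Scd1 was highest, at 302 in GFP-ZFP36L1 cells and 368 in controls. Srebf2, which encodes SREBP2, followed at 54.1 and 58.2, and Acly, the enzyme that turns citrate into acetyl-CoA, at 52.1 and 49.2. On the same scale Hmgcs1 led the sterol enzymes in GFP-ZFP36L1 cells, at 14.6 against 13.8 in controls. Pmvk led them in controls, at 12.8 in GFP-ZFP36L1 cells against 15.0. Ebp was close to both, at 13.2 in GFP-ZFP36L1 cells against 13.8 in controls. The order depends on the exon length used. Pmvk and Fdps both had 25.6 CPM on average in controls, but 1713 and 4208 bases of exon. Tm7sf2 was lowest of these enzymes, at 1.54 against 1.60. Below all of these came Elovl6, at 0.713 and 0.539, and Fads1, at 0.138 and 0.0964. Fads2 had 2, 1, 1 and 1 counts in GFP-ZFP36L1 replicates 1 to 4 and 0, 0, 0 and 1 in control replicates 1 to 4, and was too low to test.

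**Figure D2:**
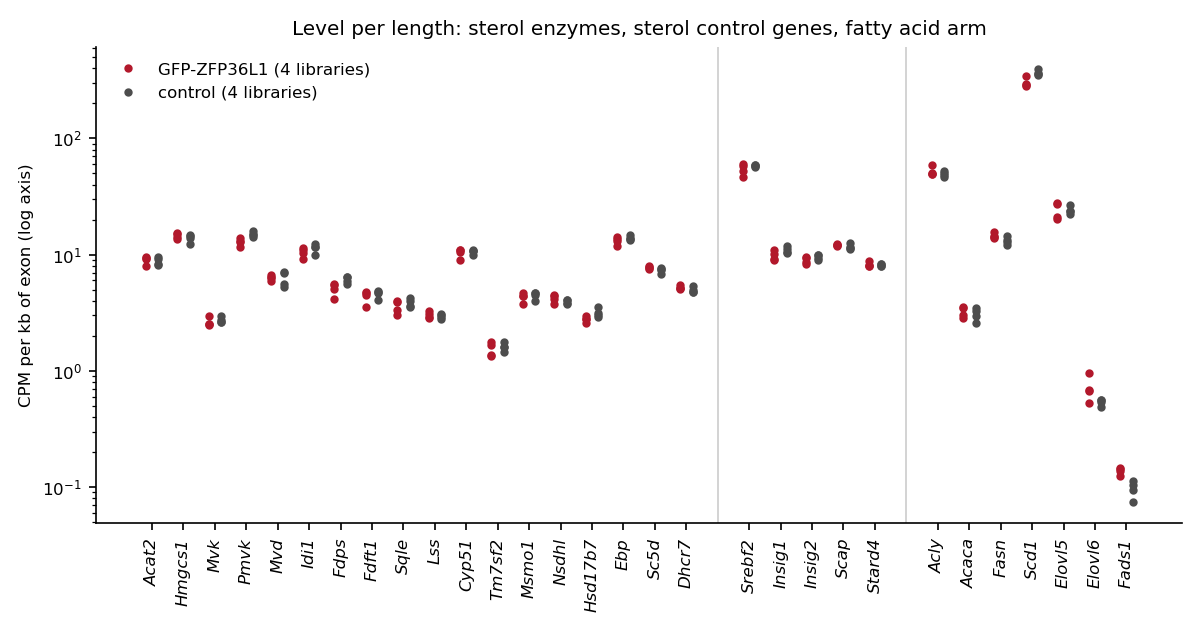
Level of the 30 tested members in each library, as CPM per kb of exon on a log axis, GFP-ZFP36L1 left and control right at each gene; grey lines part the sterol enzymes, the sterol control genes and the fatty acid arm. Scd1, at 302 and 368 on average, lies above every other member, and Fads1, at 0.138 and 0.0964, below them.

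In the early, mevalonate part of the sterol path, Pmvk had the smallest p. Pmvk (ENSMUSG00000027952, chr3:89454541-89469013, plus strand), phosphomevalonate kinase, had 21.8, 19.8, 23.6 and 22.2 CPM in GFP-ZFP36L1 replicates 1 to 4, against 27.1, 25.2, 26.0 and 24.3 CPM in control replicates 1 to 4. Every GFP-ZFP36L1 library was below every control library. Its log2 fold change was -0.23 ± 0.07 (SE), a change of -14.7% with an interval from -23.0% to -5.54% (edgeR, Benjamini-Hochberg adjusted p = 0.0954). The enzymes on either side had estimates nearer 0: Mvk, mevalonate kinase, had a log2 fold change of -0.06 ± 0.09 (SE), and Mvd, the decarboxylase that follows, 0.04 ± 0.10 (SE). The steps before them, the thiolase Acat2 and the synthase Hmgcs1, had log2 fold changes of 0.03 ± 0.08 and 0.08 ± 0.06 (SE).

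At the isoprenoid branch point, Fdps (ENSMUSG00000059743, chr3:89093588-89101959, minus strand) makes farnesyl diphosphate, from which squalene, prenyl anchors and ubiquinone tails are drawn. It had 23.7, 21.3, 22.9 and 17.3 CPM in GFP-ZFP36L1 replicates 1 to 4, against 27.2, 26.8, 25.0 and 23.6 CPM in control replicates 1 to 4. The groups overlapped only through GFP-ZFP36L1 replicate 1 and control replicate 4, and GFP-ZFP36L1 replicate 4 was lowest. The log2 fold change was -0.27 ± 0.09 (SE), the most negative of the sterol arm (edgeR, Benjamini-Hochberg adjusted p = 0.156). Idi1, which isomerises isopentenyl diphosphate just before it, had a log2 fold change of -0.13 ± 0.08 (SE), at 36.5 ± 3.27 against 40.0 ± 3.47 CPM (SD, n = 4 each). Fdft1, squalene synthase, had -0.08 ± 0.10 (SE) on the log2 scale.

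Sqle (ENSMUSG00000022351, chr15:59315077-59331192, plus strand), squalene epoxidase and a rate-controlling step of the later path, showed no separation. It had 22.1, 18.4, 21.6 and 16.7 CPM in GFP-ZFP36L1 replicates 1 to 4, against 22.1, 19.9, 23.7 and 19.5 CPM in control replicates 1 to 4. The ranges overlapped widely, and the log2 fold change was -0.11 ± 0.10 (SE, edgeR Benjamini-Hochberg adjusted p = 0.616). Lanosterol synthase, Lss, and the lanosterol demethylase Cyp51 had log2 fold changes of 0.03 ± 0.06 and -0.03 ± 0.07 (SE).

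Among the enzymes that trim lanosterol to cholesterol, Hsd17b7 (ENSMUSG00000026675, chr1:169949535-169969241, minus strand), a sterol ketone reductase, had the smallest p. It had 13.1, 15.3, 14.2 and 14.3 CPM in GFP-ZFP36L1 replicates 1 to 4, against 15.4, 17.9, 15.9 and 14.7 CPM in control replicates 1 to 4. GFP-ZFP36L1 replicate 2 lay above control replicate 4, so the groups overlapped. Its log2 fold change was -0.17 ± 0.08 (SE, edgeR Benjamini-Hochberg adjusted p = 0.303). Its partners in removing the methyl groups, Msmo1 and Nsdhl, had -0.05 ± 0.08 and 0.10 ± 0.08 (SE). The final steps were on the positive side, with Sc5d at 0.08 ± 0.06 and Dhcr7, the reductase that ends the path, at 0.07 ± 0.06 (SE). The reductase gene Tm7sf2 and the isomerase gene Ebp were at -0.06 ± 0.11 and -0.07 ± 0.06 (SE).

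Several of these counts could share reads with other genes, and no source used here says whether the counting used strand. Tm7sf2 shares 532 bp of exon with Vps51 on the same strand, and Fdft1 shares 774 bp with Ctsb on the other strand, which was called higher at a log2 fold change of 0.26 ± 0.05 (SE). Vps51 had 1573 to 1945 counts per library against 244 to 355 for Tm7sf2, and Ctsb 3387 to 4834 against 618 to 986 for Fdft1. Cyp51 shares 166 bp with Akap9, Scap 985 bp with 5830462I19Rik and Lss 381 bp with 4930483K19Rik, all on the other strand. Acat2 is 97.7% identical to Acat3 over 1477 bp, although Acat3 had only 4 to 12 counts per library, and Acat2 also matches 445 bp of Tcp1. Tcp1 was abundant, at 7877 to 12248 counts per library, against 829 to 1206 for Acat2. Idi1 and Acaca have near-identical processed pseudogenes, Gm13502 over 684 bp and Gm5182 over 6118 bp, and so do Elovl6 and Fdft1. Values of these members are uncertain to that extent.

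**Figure D3:**
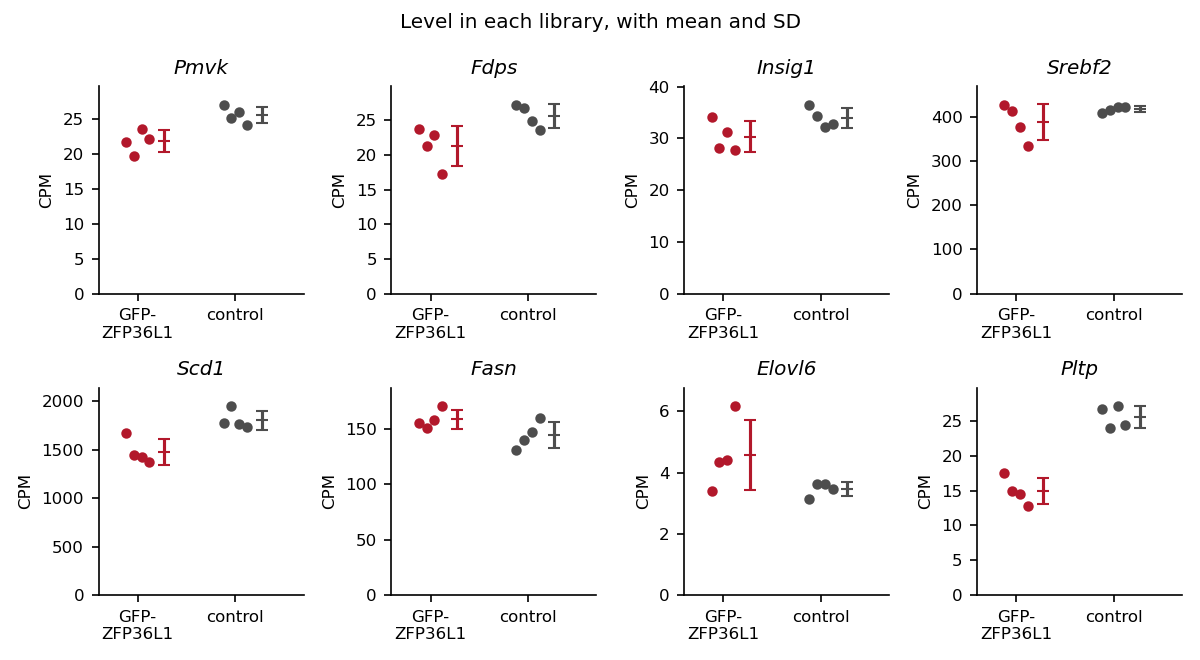
CPM of 7 members and of Pltp in each library (points, replicates 1 to 4 from left to right), with mean and SD beside them, GFP-ZFP36L1 left and control right; axes start at 0. Pmvk, Scd1 and Pltp show no overlap between groups, while for Srebf2 the 4 controls sit between 410 and 424 CPM and the GFP-ZFP36L1 libraries spread from 335 to 428 CPM.

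Of the 5 sterol control genes, Insig1, Insig2 and Srebf2 had lower means in GFP-ZFP36L1 cells and Scap and Stard4 higher ones. None of the 5 passed. Insig1 (ENSMUSG00000045294, chr5:28071363-28078662, plus strand), whose protein retains SCAP in the endoplasmic reticulum, had 34.2, 28.2, 31.2 and 27.8 CPM in GFP-ZFP36L1 replicates 1 to 4, against 36.5, 34.4, 32.2 and 32.7 CPM in control replicates 1 to 4. GFP-ZFP36L1 replicates 2 to 4 lay below all controls, and replicate 1 lay within their range. The log2 fold change was -0.16 ± 0.07 (SE, edgeR Benjamini-Hochberg adjusted p = 0.292).

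Insig2 (ENSMUSG00000003721, chr1:121304353-121332589, minus strand), the second retention protein, had 33.2, 32.7, 30.3 and 28.8 CPM in GFP-ZFP36L1 replicates 1 to 4, against 34.6, 34.2, 31.5 and 32.8 CPM in control replicates 1 to 4. The ranges overlapped. Its log2 fold change was -0.09 ± 0.06 (SE, edgeR Benjamini-Hochberg adjusted p = 0.501). Srebf2 (ENSMUSG00000022463, chr15:82147181-82205379, plus strand) had 428, 414, 378 and 335 CPM in GFP-ZFP36L1 replicates 1 to 4, against 409.6, 416, 424 and 424 CPM in control replicates 1 to 4. The controls were tight, at 418 ± 6.83 CPM, and the GFP-ZFP36L1 libraries spread on both sides of them, at 389 ± 41.4 CPM (SD, n = 4 each). Its log2 fold change was -0.10 ± 0.07 (SE, edgeR Benjamini-Hochberg adjusted p = 0.518), and it was -0.04 without GFP-ZFP36L1 replicate 4. Scap and the cholesterol carrier gene Stard4 had log2 fold changes of 0.05 ± 0.05 and 0.02 ± 0.05 (SE), on 89.9 ± 1.82 against 86.6 ± 4.55 CPM and 46.3 ± 2.13 against 45.6 ± 1.09 CPM (SD, n = 4 each).

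The heptamer UAUUUAU is the core site that ZFP36 family proteins bind, so the 3' UTRs of the members were searched for it on the sense strand, written in DNA letters as TATTTAT. It was present in 8 of the 30 tested members, or 26.7%, against 29.6% of the 10978 tested genes with a 3' UTR annotated by GENCODE on GRCm38. The median 3' UTR length was 1583 bases in the members and 1348 in those genes, so the shares are not matched for length. In the sterol arm the heptamer was found in Insig1 and Insig2 with 2 sites each, Hsd17b7 with 5 and Sc5d with 1. In the fatty acid arm Elovl6 had 3 sites and Acaca, Fasn and Elovl5 had 1 each. The following stretches are from members that carry the motif and whose values are given in every library. They are a selection: 1 of the 5 sites of Hsd17b7 and 1 of the 3 of Elovl6 are shown. The site of Elovl5, whose values are also given in every library, is not shown. Each stretch is read 5' to 3' along the transcript, with the heptamer in capitals.
Insig1, site at base 415 of the 3' UTR: gtagtaagaaTATTTATccagaattaa
Insig1, site at base 989: ttctcgtaaaTATTTATtttgtaattt
Insig2, site at base 1031: gcctgccatgTATTTATgggttaagtc
Insig2, site at base 1384: cacactactcTATTTATtattctgtct
Hsd17b7, site at base 2401: tcttgactttTATTTATtgtacaggat
Fasn, site at base 319: taaattctcaTATTTATtgcattgctg
Elovl6, site at base 3146: ttatttattgTATTTATatccaatgcc
None of the 8 members with the motif was called. Their log2 fold changes ran from -0.17 for Hsd17b7 to 0.40 for Elovl6, 4 of 8 below 0, with a median of 0.03. The 22 tested members without the motif had a median of -0.04, with 12 below 0. Over all tested genes the medians were 0.00 with the motif (3247 genes) and -0.01 without it (7731 genes), 1.66% against 1.29% were called lower, and 2.19% against 2.04% were called higher.

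The promoters were searched for elements of sterol-regulated genes, which the choice of members did not use. RefSeq windows from 250 bases before to 50 after the gene start (GRCm38.p6) were at hand for 25 of the 31 members, 19 of them in the sterol arm, and were read on both strands. Shares below count genes, and a gene can have more than 1 window: the 9270 tested genes with a window had 11759. The 25 members include Fads2, which was not tested. The box CCAAT is bound by NF-Y, which acts beside SREBP at sterol-responsive promoters. It was found for 20 of the 25 members, 17 of them sterol members, against 43.2% of the 9270 tested genes. The box GGGCGG, bound by Sp1, was also in 20 of the 25, 18 of them sterol members, against 68.1%. The E box CACGTG was in 6 of 25, against 12.1%. The sterol regulatory element core TCACNCCAC was in 1 of 25, Hmgcs1, against 1.38%. The stretches below show that element and the CCAAT box nearest upstream of the gene start for 5 members of different roles, read on the strand that holds the motif, with the motif in capitals.
Hmgcs1, sterol regulatory element, chr13:119690205-119690231, plus strand: gtcaccgtcTCACCCCACttcccaggt
Hmgcs1, CCAAT box, chr13:119690297-119690319, minus strand: cgctttcagCCAATgagaggcgg
Idi1, CCAAT box, chr13:8885583-8885605, minus strand: ggtcgccagCCAATggcaccttg
Cyp51, CCAAT box, chr5:4104713-4104735, minus strand: tgtccgccaCCAATctggtcctg
Srebf2, CCAAT box, chr15:82147125-82147147, minus strand: ttgcattagCCAATcggcgcgcg
Insig1, CCAAT box, chr5:28071187-28071209, minus strand: ccgccggagCCAATgggaggagg
A match describes the letters of the window and no binding was measured.

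In the fatty acid arm the log2 fold changes had both signs, and the most abundant member had the smallest p. Scd1 (ENSMUSG00000037071, chr19:44394455-44407879, minus strand) encodes stearoyl-CoA desaturase, which makes oleate and palmitoleate from saturated fatty acids. It had 1669.5, 1442, 1419.9 and 1369 CPM in GFP-ZFP36L1 replicates 1 to 4, against 1774, 1945, 1758 and 1728 CPM in control replicates 1 to 4. Every GFP-ZFP36L1 library lay below every control. The means were 1475 ± 133 and 1801 ± 97.7 CPM (SD, n = 4 each), a log2 fold change of -0.29 ± 0.08 (SE), or -18.1% with an interval from -27.5% to -7.52%. This did not pass (edgeR, Benjamini-Hochberg adjusted p = 0.0815), although it was the largest decrease among the members. Scd1 was called under 5 of 18 alternatives, among them the fit without GFP-ZFP36L1 replicate 1, the highest of its group, where the log2 fold change was -0.35 (edgeR, adjusted p = 0.0136, with 0.00429 to 0.227 over the alternatives), in a fit that called 7.19% of all tested genes. The paralog Scd2, named here after its values were seen, had 140 ± 19.9 against 127 ± 7.41 CPM and a log2 fold change of 0.14 ± 0.09 (SE).

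The enzymes that build palmitate had positive log2 fold changes that did not pass. Fasn (ENSMUSG00000025153, chr11:120805846-120824547, minus strand), fatty acid synthase, had 155, 151, 158 and 170.2 CPM in GFP-ZFP36L1 replicates 1 to 4, against 131, 139.9, 147 and 159 CPM in control replicates 1 to 4. Control replicate 4 lay within the range of the GFP-ZFP36L1 libraries, and the others below it. The log2 fold change was 0.13 ± 0.06 (SE, edgeR Benjamini-Hochberg adjusted p = 0.321). Acaca, acetyl-CoA carboxylase, which supplies malonyl-CoA to it, had 0.06 ± 0.09 and Acly 0.08 ± 0.07 (SE).

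Elovl6 and the polyunsaturated fatty acid desaturase gene Fads1 had the widest errors of the tested members. Elovl6 (ENSMUSG00000041220, chr3:129532355-129638495, plus strand), which lengthens palmitate, had 3.41, 4.33, 4.43 and 6.16 CPM in GFP-ZFP36L1 replicates 1 to 4, against 3.15, 3.62, 3.64 and 3.46 CPM in control replicates 1 to 4. GFP-ZFP36L1 replicate 1 lay inside the control range and replicate 4 well above it. The log2 fold change was 0.40 ± 0.16 (SE, edgeR Benjamini-Hochberg adjusted p = 0.226). Without GFP-ZFP36L1 replicate 4 it was 0.23 (edgeR adjusted p = 0.482, with 0.0526 to 0.59 over the alternatives). Fads1 (ENSMUSG00000010663, chr19:10182888-10196877, plus strand) had only 30, 32, 26 and 29 counts in GFP-ZFP36L1 replicates 1 to 4, against 21, 18, 19 and 22 counts in control replicates 1 to 4. These did not overlap, but at this depth the interval ran from 4.65% to 96.9% higher, with a log2 fold change of 0.52 ± 0.21 (SE, edgeR Benjamini-Hochberg adjusted p = 0.218). Elovl5, the elongase of polyunsaturated chains, had 96.1, 97.5, 74.6 and 70.6 CPM in GFP-ZFP36L1 replicates 1 to 4, against 94.1, 83.6, 84.1 and 79.5 CPM in control replicates 1 to 4, and a log2 fold change of -0.01 ± 0.10 (SE).

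**Figure D4:**
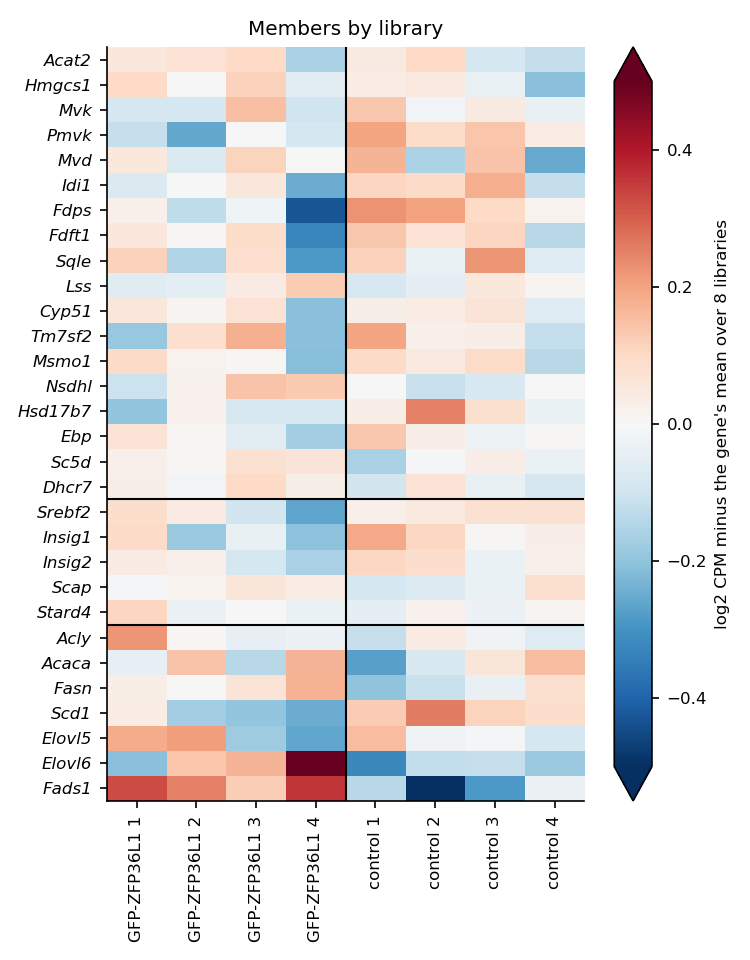
Log2 CPM of each tested member minus its mean over the 8 libraries, GFP-ZFP36L1 replicates left of the black line and controls right of it; black horizontal lines part the 3 groups of members, and the colour scale stops at 0.5 either way. GFP-ZFP36L1 replicate 4 is lowest of the 8 libraries in 10 of 18 sterol enzymes.

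Much of the variation within the sterol arm followed single libraries. Averaged over the 18 enzymes, the deviation of log2 CPM from each gene's mean was -0.01, -0.03, 0.06 and -0.12 in GFP-ZFP36L1 replicates 1 to 4, and 0.07, 0.04, 0.06 and -0.07 in control replicates 1 to 4. GFP-ZFP36L1 replicate 4 and control replicate 4, titled 8 and 7, were low, and GFP-ZFP36L1 replicate 3 lay within the range of control replicates 1 to 3. GFP-ZFP36L1 replicate 4 was lowest of the 8 libraries for 10 of 18 enzymes and 3 of 5 control genes, while GFP-ZFP36L1 replicate 3 and control replicate 1 were each highest for 7 enzymes. Without GFP-ZFP36L1 replicate 4 the median log2 fold change of the enzymes was 0.00, with 9 of 18 below 0. It was -0.08, with 13 of 18 below 0, without control replicate 4. Without replicate 4 of both groups it was -0.04, with 11 of 18 below 0. Over the 5 control genes the deviations were 0.07, -0.03, -0.03 and -0.13 in GFP-ZFP36L1 replicates 1 to 4, and 0.04, 0.04, 0.00 and 0.04 in control replicates 1 to 4. The fatty acid arm ran otherwise, at 0.08, 0.08, -0.03 and 0.11 in GFP-ZFP36L1 replicates 1 to 4, and -0.11, -0.08, -0.04 and -0.01 in control replicates 1 to 4. In it only GFP-ZFP36L1 replicate 3 fell within the control range. These means weigh each of the 7 tested genes alike. The largest positive log2 fold changes among them were those of the scarcest genes, Fads1 at 0.52 and Elovl6 at 0.40. Scd1, the most abundant, went the other way, at -0.29.

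**Figure D5:**
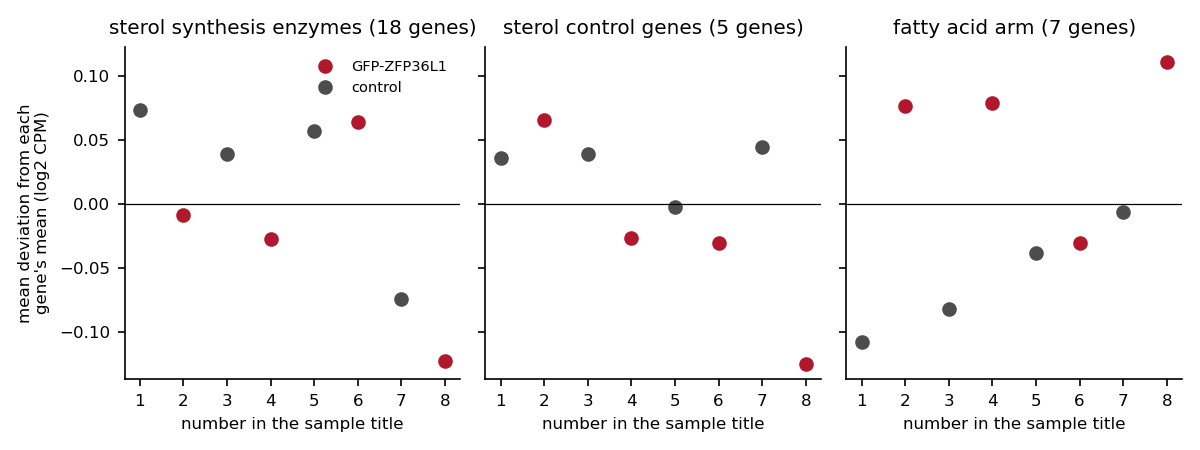
Mean deviation of log2 CPM over the members of each group, 1 point per library, against the number in the sample title; GFP-ZFP36L1 libraries hold the even numbers and controls the odd ones. In the enzymes the points numbered 7 and 8 are lowest, at -0.07 and -0.12, and in the fatty acid arm the controls run from -0.11 at number 1 to -0.01 at number 7.

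The sample titles are numbered 1 to 8, alternating between the groups, and the labels do not say what the number stands for. With group in the fit, 20.8% of all tested genes had a slope with this number that edgeR called. Among the 18 sterol enzymes 14 slopes were negative, beside 6420 of the 13035 over all tested genes. Of the 18, 2 were called (11.1%), both falling with the number. These were Fdps, at -0.05 log2 units per number (adjusted p = 0.028), and Msmo1, at -0.04 (adjusted p = 0.034), by edgeR with Benjamini-Hochberg adjustment. None of the 5 control genes was called. In the fatty acid arm Fasn rose at 0.03 per number (adjusted p = 0.0176) and Elovl5 fell at -0.06 (adjusted p = 0.00657) in the same edgeR test. With the number as a linear term, the group difference of Pmvk was called by edgeR at an adjusted p of 0.0404, that of Fdps at 0.0487 and that of Scd1 at 0.0125, with log2 fold changes of -0.23, -0.22 and -0.26. That fit called 7.9% of all tested genes.

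Genes around the pathways were called at about the rate of all tested genes. Of 102 genes in 10 lists of neighbouring lipid metabolism, 92 were tested. Of these, 2 were called higher and 1 lower, or 3 of 92 beside 3.12% of all tested genes. Their log2 fold changes were positive for 34 and negative for 58, beside 52.1% negative over all tested genes. By edgeR none was called in the isoprenoid branch (0 of 12), the SREBP cleavage and sterol-dependent degradation machinery (0 of 9), sterol uptake, transfer and storage (0 of 12), oxysterol enzymes (0 of 2 tested), citrate and acetyl-CoA supply (0 of 8), fatty acid activation and uptake (0 of 9), fatty acid oxidation (0 of 10) or phospholipid and triacylglycerol synthesis (0 of 12). The medians of the 10 lists lay between -0.07 and 0.03.

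Of the called genes, 1 higher and 1 lower sat among the 8 tested genes of the liver X receptor list. That receptor answers to excess sterol. The other was 1 of 10 tested genes of other fatty acid synthesis, elongation and desaturation, and acts outside the cytosolic path. In the receptor list 6 genes were not called. Their log2 fold changes were -0.06 ± 0.06 for Nr1h2, 0.11 ± 0.26 for Nr1h3 and -0.05 ± 0.04 for Rxrb (SE). Abca1 had -0.05 ± 0.10, Abcg1 0.13 ± 0.06 and Mylip -0.13 ± 0.06 (SE). Pltp, phospholipid transfer protein, was lower, at 17.5, 15.0, 14.5 and 12.8 CPM in GFP-ZFP36L1 replicates 1 to 4, against 26.7, 24.1, 27.1 and 24.4 CPM in control replicates 1 to 4. Its log2 fold change was -0.77 ± 0.09 (SE, edgeR Benjamini-Hochberg adjusted p = 0.00206). Rxra, a partner receptor of LXR, was higher, at 1.08, 1.52, 2.03 and 2.39 CPM in GFP-ZFP36L1 replicates 1 to 4, against 0.64, 0.82, 0.79 and 0.93 CPM in control replicates 1 to 4. The groups did not overlap for either gene. The log2 fold change of Rxra was 1.13 ± 0.25 (SE, edgeR Benjamini-Hochberg adjusted p = 0.0348). Rxrb, of the same list, was far more abundant, at 107.5 ± 3.64 against 111.5 ± 1.91 CPM (SD, n = 4 each). It was not called (edgeR, Benjamini-Hochberg adjusted p = 0.6). Oxsm, the condensing enzyme of mitochondrial fatty acid synthesis, was higher, at 18.9, 18.3, 18.8 and 20.9 CPM in GFP-ZFP36L1 replicates 1 to 4, against 15.6, 14.8, 16.7 and 15.3 CPM in control replicates 1 to 4. Its log2 fold change was 0.30 ± 0.07 (SE, edgeR Benjamini-Hochberg adjusted p = 0.0392). The calls of Rxra and Oxsm were lost when any 1 library other than GFP-ZFP36L1 replicate 1 was left out, with adjusted p up to 0.112 and 0.124 (edgeR), while Pltp passed under all 18 alternatives.

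In 7 of the remaining lists the gene with the smallest p is given here, and edgeR called none of the 7. Syvn1, a ubiquitin ligase of the endoplasmic reticulum, had -0.17 ± 0.05 (SE), and Gramd1a, which carries cholesterol from the plasma membrane to the endoplasmic reticulum, -0.19 ± 0.05 (SE). For both, every GFP-ZFP36L1 library lay below every control, and the adjusted p was 0.109 and 0.0785 (edgeR, Benjamini-Hochberg). Slc27a1, a fatty acid transport protein, had 0.30 ± 0.09 (SE), and its groups did not overlap (edgeR, Benjamini-Hochberg adjusted p = 0.0914). Of the 18 alternatives, 4 called Syvn1, 4 Gramd1a and 5 Slc27a1, DESeq2 and voom among them for each gene, and 1 called Pcyt1a. The prenyltransferase subunit gene Rabggtb had -0.14 ± 0.07, the bile acid and oxysterol enzyme gene Hsd3b7 -0.13 ± 0.13, the oxidation enzyme gene Hadhb -0.13 ± 0.06, and Pcyt1a, which controls phosphatidylcholine synthesis, 0.21 ± 0.07 (SE).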

How the data were processed

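The authors deposited raw counts per gene, and every test started from them. The submitters' processing notes list build GRCm38 and the tools TopHat2 2.0.12, DESeq2 1.10.1, Trim Galore and HTSeq. Per the labels, the mRNA kit keeps strand and reads were 100 bp pairs. The normalized signal the authors deposited equals the count divided by 1 constant per library and was used only for that check. The authors' deposited comparison table holds a log2 fold change, a Wald score and a p-value per gene.

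The test was that of edgeR 4.0.16 in R 4.3.3 (filterByExpr, TMM, robust quasi-likelihood test, group as the only term, Benjamini-Hochberg adjustment over 13035 genes, called under 0.05). CPM uses TMM-scaled library sizes. Intervals are 95% from the SE, and the script was tested on simulated data. Symbols and 3' UTRs came from GENCODE, for 42548 of 43629 identifiers. Alternatives used DESeq2 1.42.0, limma 3.58.1, sva 3.50.0, other scalings and filters, and each library left out. The fit without replicate 4 of both groups was added after seeing the data.

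Members and lists were chosen with earlier results of these data known. Values in every library are given for the 3 members of smallest p in each of 3 groups, for Srebf2, Insig1, Sqle, Fasn and Scd1, and for called genes of related lists. Elovl5 was added after its values were seen. The smallest-p gene of 1 related list is not reported here.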

Additional observations from a re-analysis of the deposited data

Results flagged for a closer look

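In 80 groups of 4 libraries (40 genes in 2 groups), 3 held a library set apart from the other 3 by a gap large for the range, where chance gives about 1 in 20. Mvk had 7.93 CPM in GFP-ZFP36L1 replicate 3, against 6.68 to 6.74 CPM in the other GFP-ZFP36L1 libraries. Acly had 311 CPM in GFP-ZFP36L1 replicate 1, against 259 to 268 CPM in the others of that group. Pcyt1a had 25.3 CPM in control replicate 2, against 21.5 to 21.9 CPM in the other controls.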

How the results depend on the processing

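The count of 0 called sterol control genes stood under all 18 alternatives. For the enzymes it was 1 under DESeq2 (Pmvk) and 2 (Pmvk and Fdps) with 1 surrogate variable or when the title number entered as a linear term. For the fatty acid arm it was 1, Scd1, under DESeq2, voom, 1 surrogate variable and the title number, and from 0 to 1 when a library was left out. Over all genes the count of 407 became 882 with DESeq2, 1053 with voom, 1243 with 1 surrogate variable, 1030 with the title number, 79 to 948 with 1 library left out (79 without control replicate 3, 948 without GFP-ZFP36L1 replicate 1) and 125 without replicate 4 of both groups. Adjusted p ranged from 0.00429 to 0.227 for Scd1, 0.0338 to 0.232 for Pmvk and 0.0309 to 0.321 for Fdps over the alternatives with edgeR, DESeq2 and limma.

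Some members had log2 fold changes that turned sign under an alternative, and no member was called in the main fit. With 1 library left out, values ran from -0.003088 to 0.09233 for Acat2, -0.03341 to 0.1036 for Mvd, -0.1404 to 0.006303 for Fdft1, -0.001173 to 0.0646 for Lss, -0.05861 to 0.0352 for Cyp51, -0.09858 to 0.01633 for Msmo1, -0.002717 to 0.04206 for Stard4, -0.01006 to 0.1278 for Acaca and -0.08449 to 0.07359 for Elovl5. Without replicate 4 of both groups they were -0.02543 for Mvd, 0.00369 for Cyp51 and 0.03599 for Elovl5. With voom they were 0.04363 for Tm7sf2 and -0.01758 for Acaca. Elovl5 was 0.003826 with upper-quartile factors, 0.04519 with 1 surrogate variable and 0.04252 with the title number. The median of the fatty acid arm was 0.03 with voom and 0.13 without control replicate 4, against 0.08. The cause was not tested. No paired analysis was possible because the labels number the titles 1 to 8 across the groups and give no replicate number that the groups share.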
